A study of Rattus norvegicus with 24 samples.

Results

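The baseline transcriptome of the rat dorsal striatum was described on the 8 arrays of the saline group, out of 24 arrays in the series. Each array is a one-colour Agilent oligonucleotide array hybridised with Cy3-labelled total RNA from the left dorsal striatum, which had been dissected by hand. All rats were male Long Evans animals aged 80 to 90 days, and each received 1 intraperitoneal injection a day on 5 days. The saline rats had saline on all 5 days. The acute rats had saline on 4 days and MDPV, a synthetic cathinone that blocks the dopamine transporter, at 1 mg/kg on the last day. The chronic rats had MDPV at 1 mg/kg on all 5 days. In every group the tissue was collected 24 h past that final injection, so the saline arrays show handled and repeatedly injected rats, not untouched ones. The series design states 6 rats per group, whereas 8 arrays per group were given. Saline replicates 1 and 8 share a title letter, as do replicates 2 and 5. The labels do not say whether such a pair comes from 1 animal, so all p-values below measure only the spread between these samples.

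The saline arrays were chosen by their treatment label, not by any measured value. A gene was counted as present on an array when its probe was well above background, a call made by the scanner software. The level of a gene is the log2 processed signal of its brightest probe minus the array's 75th percentile over all non-control spots. A level of 0 is thus that percentile, and a step of 1 is a 2-fold step. A probe's signal also depends on its own sequence, so a rank below is a rank of probe signals and not of transcript numbers. Across the saline arrays 50.7% to 71.3% of the 58717 non-control spots were well above background, and no spot was saturated. Replicate 3 had the lowest share and replicate 5 the highest.

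The dorsal striatum is the main input nucleus of the basal ganglia. Most of its neurons are GABAergic spiny projection neurons. Those of the direct pathway carry the dopamine receptor Drd1 and make substance P from Tac1, and those of the indirect pathway carry Drd2 and make enkephalin from Penk. Both kinds contain Ppp1r1b (DARPP-32), a phosphatase inhibitor that relays dopamine receptor and cAMP signals. The dopamine itself comes from axons whose cell bodies lie in the midbrain, and cholinergic and several GABAergic interneurons make up the remaining local neurons.

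The sequences below show what was read for these genes. The Penk probe lies in the coding sequence. Its capitals mark bases 39 to 53 of 60, the codons of YGGFM, the Met-enkephalin sequence. In the probe's reading arginine and phenylalanine (RF) follow it directly. This probe thus reads Penk RNA over the codons of that sequence as part of YGGFMRF. It lies at chr5:17509637-17509696 in the build named in the file headers, rn4.

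Penk probe: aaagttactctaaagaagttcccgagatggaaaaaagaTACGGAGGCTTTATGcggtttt

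The promoters of Drd1 and Tac1 are shown because these direct pathway genes differ in base composition, a property returned to below. They run from 250 bases before to 50 bases after the annotated start, were taken from RefSeq (GRCr8), and have each CG in capitals. Of the 5 striatal marker genes, 3 had an entry in the promoter table.

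Drd1 promoter, chr17:10546354-10546653, plus strand: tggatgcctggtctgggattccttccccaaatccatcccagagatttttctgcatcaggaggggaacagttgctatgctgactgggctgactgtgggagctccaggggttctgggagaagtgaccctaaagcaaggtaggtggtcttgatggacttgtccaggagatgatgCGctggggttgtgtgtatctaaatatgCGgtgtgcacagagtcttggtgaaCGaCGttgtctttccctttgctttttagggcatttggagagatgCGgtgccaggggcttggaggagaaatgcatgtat

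Tac1 promoter, chr4:36645333-36645632, plus strand: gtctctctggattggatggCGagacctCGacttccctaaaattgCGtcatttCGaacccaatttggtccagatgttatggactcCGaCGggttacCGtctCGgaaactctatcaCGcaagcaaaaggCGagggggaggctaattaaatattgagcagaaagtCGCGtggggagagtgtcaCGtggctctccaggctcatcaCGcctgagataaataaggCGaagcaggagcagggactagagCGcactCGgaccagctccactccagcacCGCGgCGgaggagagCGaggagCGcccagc

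The array carried 36174 gene names, of which 17717 were gene symbols and the remainder locus or transcript identifiers. Of the symbols, 9986 (56.4%) were well above background on all 8 saline arrays and 3781 (21.3%) on none. The other 3950 were so on 1 to 7 arrays, or only through a probe that was not their brightest. Over all gene names the counts were 14409 on all 8 arrays, 9591 between and 12174 on none. Genes on all 8 arrays spanned levels from -5.07 to 6.85. The median level of genes on no array was -7.80, and 79.2% of their spots held a surrogate value that the scanner software had put in place of a signal too close to background. The shares below are read against 56.4% on all arrays and 21.3% on none.

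Most markers of the striatal projection neuron were present on every array. All 21 genes of the pan-striatal list, among them Ppp1r1b, Rgs9, Pde10a and Adcy5, were well above background on all 8 arrays, at a median level of 2.21. Among direct pathway markers 8 of 9 were on all arrays, and Isl1, a transcription factor, was on 7. Among indirect pathway markers 6 of 8 were on all arrays. The orphan receptor Gpr6 was on 4 arrays and the transcription factor Sp9 on 7. All 9 GABA interneuron markers were on all arrays. The level of Sst (somatostatin) was 4.15 ± 0.18 (SD, n = 8) and that of Npy (neuropeptide Y) 3.11 ± 0.36 (SD, n = 8). The SD of Npy was 0.21 without replicate 4, where it was lowest at 2.35. Of the 7 cholinergic interneuron markers 5 were on all arrays, including Chat, the acetylcholine-synthesising enzyme, at -0.95 ± 0.46 (SD, n = 8).

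Glial and vascular markers were nearly all present. Present on all 8 arrays were 12 of 12 astrocyte, 14 of 14 oligodendrocyte, 5 of 5 oligodendrocyte precursor and 12 of 12 microglia genes. Of the endothelial and mural genes 10 of 13 were on all arrays, with none absent from every array. Astrocyte genes had a median level of 1.83, oligodendrocyte genes one of 1.19 and microglia genes one of -0.37.

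Testis, Hox and olfactory receptor genes were mostly dark, whereas the liver, blood cell and muscle lists were mixed. No testis marker was on all 8 arrays and 7 of 10 were on none. No Hox gene was on all arrays and 22 of 29 were on none. Of 1175 olfactory receptors 13 (1.11%) were on all arrays and 997 (84.9%) on none. Liver markers were on all arrays in 4 of 11 genes and on none in 5. Of the 4, 1 was Ttr, also a choroid plexus gene, and another Ahsg (fetuin A) at 1.02 ± 0.27 (SD, n = 8). Skeletal and heart muscle genes were on all arrays in 3 of 12 and on none in 4. Myh6 was on all arrays at -0.54 ± 0.32 and Myh7 at -1.23 ± 0.38 (SD, n = 8 each). Blood cell genes were on all arrays in 3 of 11, and these were the haemoglobin genes Hba1, Hba2 and Hbb, with Hba1 at 4.27 ± 0.26 (SD, n = 8). Only 2 of the 11 (18.2%) were on no array, near the 21.3% over all symbols.

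**Figure D1:**
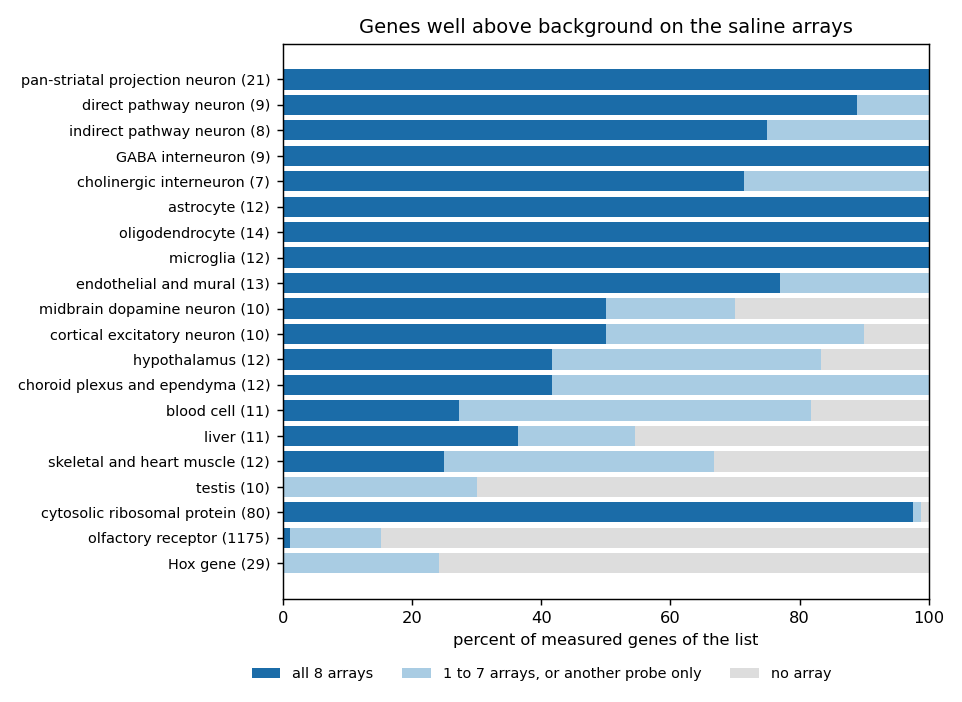
Percent of the measured genes of each list (horizontal axis; number measured in brackets) that were well above background on all 8 saline arrays, on some, or on none. Bars of the projection neuron, GABA interneuron, astrocyte, oligodendrocyte and microglia lists are full, whereas testis and Hox genes have no member on all 8 arrays and olfactory receptors have 1.11% there.

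Within dopamine signalling the receptors were split. Drd1 and Drd2 were on all 8 arrays, Drd5 on 6, and Drd3 and Drd4 on none. Downstream, the cyclase Adcy5 had a level of 2.21 ± 0.55, the phosphodiesterase Pde10a one of 3.37 ± 0.67 and the kinase subunit Prkaca one of 3.16 ± 0.18 (SD, n = 8 each). In all, 22 of 27 measured genes of this list were on all arrays. Of the genes that mark the dopamine neuron itself, Th, the rate-limiting enzyme of dopamine synthesis, was on all arrays at -1.20 ± 0.41 (SD, n = 8). The dopamine transporter Slc6a3, the target of MDPV, was on 2 arrays, and the midbrain transcription factors Pitx3, En1 and Foxa2 were on none.

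Neuropeptide precursors were present on all arrays in 18 of 24 cases (75%), against 56.4% over all symbols. Their receptors were so in 11 of 20 (55%), near the share over all symbols. The mu opioid receptor Oprm1 was on 1 array, the kappa receptor Oprk1 on 2 and the delta receptor Oprd1 on 7. These are calls on probes, and a low count does not show that the transcript is absent. A second Penk probe, for example, was well above background on 4 arrays, against 8 for the probe used. The opioid precursor Pdyn, a direct pathway gene, was on all arrays at 1.85 ± 0.44 (SD, n = 8). Of 18 immediate early genes 9 (50%) were on all arrays, also near that share, and none was absent from every array. Fos was on 7 arrays at -4.57 ± 0.33 and Npas4 on 3 at -6.04 ± 0.66, while Arc was on all 8 at 0.45 ± 0.55 and Egr1 on all 8 at 0.16 ± 0.61 (SD, n = 8 each). Without replicate 4 the SD was 0.36 for both Arc and Egr1.

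The 5 markers that define the tissue were measured far above background on each array. Ppp1r1b had levels of 4.48, 5.34, 4.29, 3.10, 4.30, 4.67, 5.17 and 4.71 in replicates 1 to 8. Penk had 3.81, 4.59, 3.49, 2.88, 3.75, 3.89, 4.44 and 3.81 in the same order. Replicate 4 was the lowest and replicate 2 the highest in both. Tac1 had 4.49, 4.61, 3.67, 2.91, 4.04, 4.15, 4.24 and 3.88. Drd1 had 3.39, 3.35, 2.55, 1.89, 3.28, 2.77, 2.94 and 2.63, and Drd2 had 3.39, 3.88, 2.65, 1.90, 2.98, 3.38, 3.29 and 2.99. Replicate 4 was again the lowest in each of these genes. The means were 4.51 ± 0.68 for Ppp1r1b, 3.83 ± 0.53 for Penk, 4.00 ± 0.54 for Tac1, 2.85 ± 0.51 for Drd1 and 3.06 ± 0.59 for Drd2 (SD, n = 8 each). Without replicate 4 the SDs were 0.41, 0.40, 0.33, 0.35 and 0.39 in that order. Penk and Drd1 each had a second probe, whose mean was -5.91 for Penk and -2.84 for Drd1. The second probe starts at base 130 of the Penk transcript against base 1075 for the probe used, and at base 2025 of the Drd1 transcript against base 3346.

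**Figure D2:**
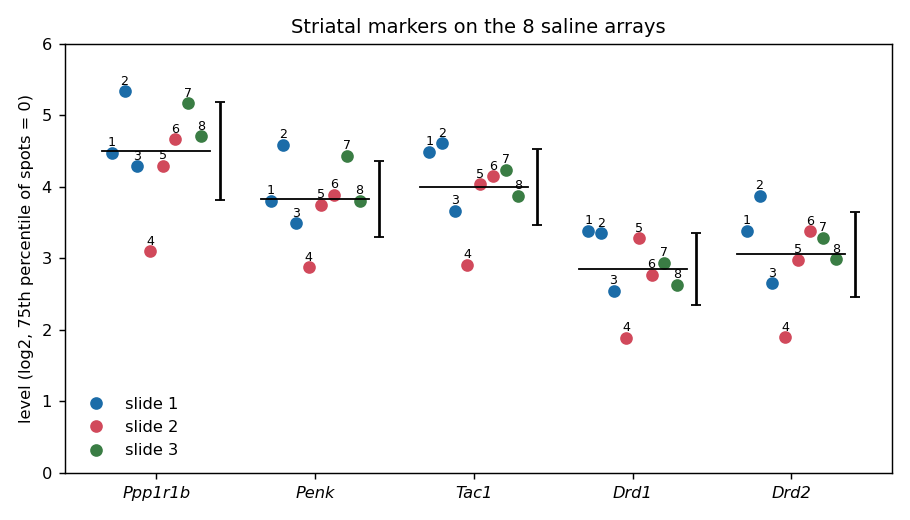
Level (vertical axis, log2, 75th percentile of spots = 0) of the 5 striatal marker genes on the saline arrays, numbered by replicate and coloured by slide. Horizontal lines are means over 8 arrays and the bars at the right of each gene are ± 1 SD. Replicate 4 is the lowest point of every gene, between 1.89 and 3.10.

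This shift of replicate 4 extended over the whole projection neuron list. Replicate 4 was the lowest array in 21 of 21 pan-striatal genes and replicate 2 the highest in 17. The mean deviation of the list from its genes' own means was -1.08 in replicate 4 and 0.70 in replicate 2, and lay between -0.32 and 0.27 in the other 6 arrays. The median SD of the list's genes was 0.59 over 8 arrays and 0.39 without replicate 4, against 0.24 over all genes on all 8 arrays. In bulk tissue, fewer cells of a type and less RNA per cell cannot be told apart.

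Markers of the hypothalamus and of the thalamus, septum and pallidum moved on the same array in the opposite direction. The hypothalamus list deviated by 2.48 in replicate 4, with the next array at 0.62. Replicate 4 was highest in 7 of the list's 10 genes on any array. Pomc, the precursor of melanocortins and beta-endorphin, was at -2.36 there and between -2.54 and -2.17 over all arrays. Oxt (oxytocin) had levels of -2.62, -1.77, -2.14, 1.99, -2.21, -1.99, -2.17 and -2.19 in replicates 1 to 8. Avp (vasopressin) had -4.44, -4.75, -5.50, 2.60, -3.21, -4.45, -5.04 and -4.58. Replicate 4 stood apart in both. The SD was 1.49 with replicate 4 and 0.26 without it for Oxt, and 2.62 and 0.71 for Avp. Pmch, the melanin-concentrating hormone precursor, was at 0.86 in replicate 4 and between -6.33 and -4.83 elsewhere. The thalamus, septum and pallidum list was highest in replicate 4 in 9 of 9 genes, with a mean deviation of 1.41 there and 0.79 in replicate 5. Oligodendrocyte genes were highest in replicate 4 in 12 of 14 cases, with a mean deviation of 0.54. Hypothalamic transcription factors Sim1 and Otp were on no array. The part of these markers in the lower striatal levels of replicate 4 was not tested.

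Cortical excitatory markers followed another pattern. Neurod2, a transcription factor of cortical projection neurons, had levels of -1.45, -2.63, -0.50, -3.99, -4.89, -0.63, -1.32 and -0.66. Neurod6 had -1.49, -2.11, -0.75, -4.17, -4.58, -0.88, -1.05 and -1.24. Replicates 4 and 5 were the lowest in both genes, and replicate 3 the highest. Slc30a3, the zinc transporter of glutamatergic synaptic vesicles, ranged from -2.78 in replicate 5 to 1.57 in replicate 3. The cortical list deviated by -1.91 in replicate 5, -1.43 in replicate 4 and 1.24 in replicate 3. Of its 9 genes on any array, 4 were lowest in replicate 5, 2 in replicate 4 and 3 in replicate 2, and 7 were highest in replicate 3. Among these 9 genes 4 were not on all arrays. Replicate 3 had the most spots on surrogates, 34.3%, against 14.8% in replicate 5. Olfactory receptors on any array also deviated by 0.79 in replicate 3 and by -0.33 in replicate 5. Rorb was lowest in replicate 2, at -1.48, and was at -0.37 in replicate 4 and -0.60 in replicate 5. The median SD of the 5 cortical genes on all arrays was 1.33, and 0.50 without replicates 4 and 5. Cck, a neuropeptide of cortical neurons among others, had levels of 4.81, 4.02, 5.28, 2.91, 2.61, 4.88, 4.43 and 4.76, so the same 2 arrays were the lowest.

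The choroid plexus list held the gene with the largest SD of all, Ttr, while the median SD of its 5 genes on all arrays was 1.00. Ttr (transthyretin), the main secreted protein of the choroid plexus, had levels of -2.04, 3.22, 6.28, 6.20, 5.92, -2.14, 5.23 and -4.37 in replicates 1 to 8. The arrays thus fell into high values in replicates 2, 3, 4, 5 and 7 and low values in replicates 1, 6 and 8. The range was 1606-fold. Folr1, a folate receptor of the same epithelium, had -5.19, -5.38, -1.37, -1.31, -0.52, -4.26, -2.37 and -6.37, where replicate 2 was among the low arrays. Kcnj13, a potassium channel of that epithelium, was on 4 arrays and ranged from -7.23 to -1.12. Foxj1, the regulator of motile cilia, ranged only from -3.85 to -2.63. Replicate 5 was the highest array in 10 of 12 genes of this list.

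**Figure D3:**
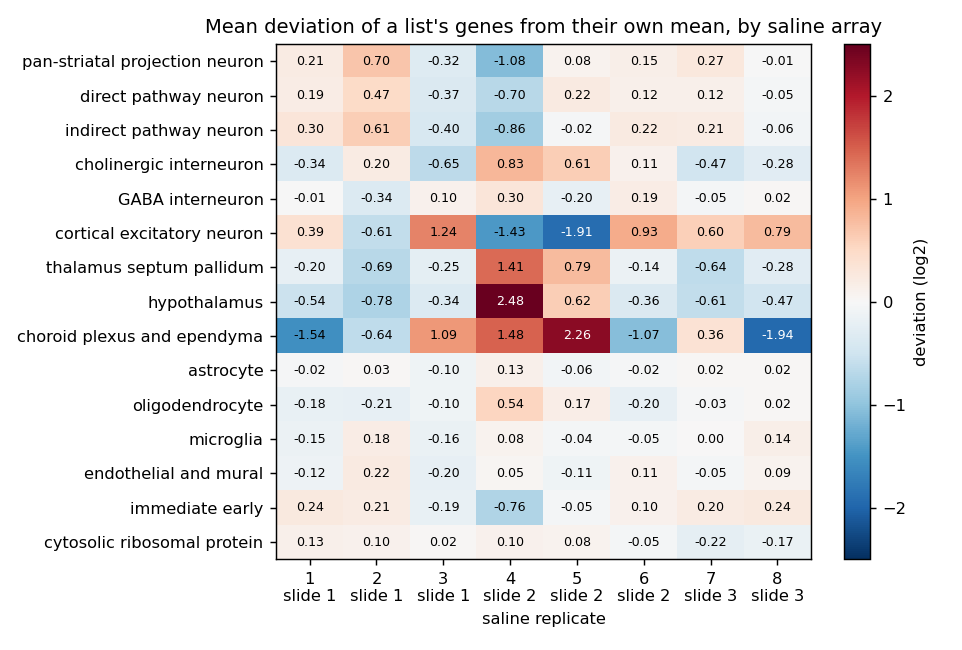
Mean deviation (colour and number, log2) of the genes of each list (rows) from their own mean over the saline arrays, for replicates 1 to 8 (columns, with slide), leaving out genes on no array. Replicate 4 is low in projection neuron genes (-1.08) and high in hypothalamus genes (2.48), replicates 4 and 5 are low in cortical genes, and the choroid plexus row runs from -1.94 to 2.26.

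Some other lists varied less between arrays. The median SD was 0.23 for astrocyte, 0.23 for microglia, 0.24 for endothelial and mural, 0.16 for cytosolic ribosomal protein and 0.15 for proteasome genes. It was higher in further lists, at 0.53 for neuropeptide, 0.46 for dopamine receptor and cAMP signalling, 0.44 for cholinergic interneuron and 0.42 for potassium channel genes. Cholinergic interneuron genes deviated by 0.83 in replicate 4, 0.61 in replicate 5 and -0.65 in replicate 3.

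Among immediate early genes replicate 4 deviated by -0.76, with the next lowest array at -0.19, and the list's median SD was 0.44 with replicate 4 and 0.24 without it. Arc was at -0.63 in replicate 4 and between -0.05 and 1.02 elsewhere.

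The brightest probes included those of ribosomal, myelin and mitochondrial genes. Ribosomal protein genes were on all arrays in 78 of 80 cases, at the median 99.4th percentile of all gene names, and complex I genes in 42 of 44 cases at the 97.2nd percentile. Mbp (myelin basic protein) had levels of 6.69, 6.79, 6.44, 6.44, 6.06, 6.62, 6.20 and 6.22 in replicates 1 to 8. Among the 25 symbols with the highest level were Ppia, Rpl41, Hspa8, Ubb, Cox6a1, Actg1, Tuba1a and Fth1, whose means lay between 5.48 and 6.21. Also among them were the astrocyte genes Apoe (5.44 ± 0.18) and Aldoc (5.42 ± 0.17), the secreted protease inhibitor Cst3 (5.81 ± 0.14) and the kinase Mapk3 (5.32 ± 0.29; SD, n = 8 each). Ppp1r1b was at rank 155 of 14409, Tac1 at 289, Penk at 339, Drd2 at 682 and Drd1 at 784.

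Some of the brightest probes were at odds with another probe of the same gene. Smc4, a condensin subunit, had a bright probe at 5.64 ± 0.32 (SD, n = 8) and another at -5.42. Mbp had a second probe at -2.76. Which RNA these probes bound was not tested. Among 3760 symbols with several probe sequences and a brightest probe on all arrays, the median gap between the brightest and the dimmest probe was 3.41, and it exceeded 3 in 56.5%. Where 2 probes lay at least 200 bases apart on 1 transcript, the probe nearer the 3′ end was brighter in 1528 of 1870 cases (81.7%), by a median of 2.5. For a gene with several probes the level is therefore that of its brightest probe alone.

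The between-array spread was small for most genes. The median SD of the 14409 genes on all 8 arrays was 0.24, with 95% of genes at or below 0.54. It fell with level, from 0.31 to 0.20 between the dimmest and the brightest of 5 equal bins of genes. An SD over 1 was found in 78 genes (0.541%), 59 of them with a symbol, and 30 lay in each of the 2 dimmest bins. Leaving out replicate 5 lowered this count to 57 and leaving out replicate 4 to 61. With normexp background correction and quantile normalization together it was 27.

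Of the 20 symbols with the largest SD, Ttr and Folr1 are in the choroid plexus list, Neurod2, Neurod6 and Fezf2 in the cortical list and Oxt in the hypothalamus list. The other 14 are in no regional list, among them Lyzl4, Ucma, Sgcb, Krt18, Wnt10a, Mas1 and Kcns1. Besides Ttr (4.42), Folr1 (2.22) and Neurod2 (1.66), the 20 included the peptide Gal, with levels of -1.95, -4.46, -2.10, 1.38, -0.89, -2.78, -2.08 and -1.85. Gal was again highest in replicate 4. The choroid plexus channel subunit Kcne2 (SD 1.30), the growth factor binding protein Igfbp2 (1.28) and the cilium gene Spag6 (1.56) were also among them, as were the cortical transcription factor Fezf2 (1.33), the peptide Cort (1.28) and the heparan sulfate enzyme Hs3st2 (1.27). In Fezf2, Cort and Hs3st2 replicates 4 and 5 were the lowest arrays, as in Neurod2. Replicate 5 was the array farthest from the median in 39 of the 78 genes and replicate 4 in 23. Over all 14409 genes, replicate 4 was farthest in 21.3% and replicate 7 in 19.4%.

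At the other end, Timm17a, a subunit of the mitochondrial inner membrane translocase, had levels between 1.73 and 1.81 on the 8 arrays, an SD of 0.03. Atad3a, a mitochondrial ATPase, lay between -0.43 and -0.32 (SD 0.04), and Mafg, a small Maf transcription factor, between 1.04 and 1.15 (SD 0.05). These genes were picked for their small SD in saline. In acute and chronic arrays the SDs were 0.07 and 0.15 for Timm17a, 0.1 and 0.03 for Atad3a, and 0.05 and 0.12 for Mafg. The common reference genes had a median SD of 0.18, and Gapdh ranged from 4.14 to 5.08 (SD 0.30) and Actb from 3.40 to 4.08 (SD 0.26).

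**Figure D4:**
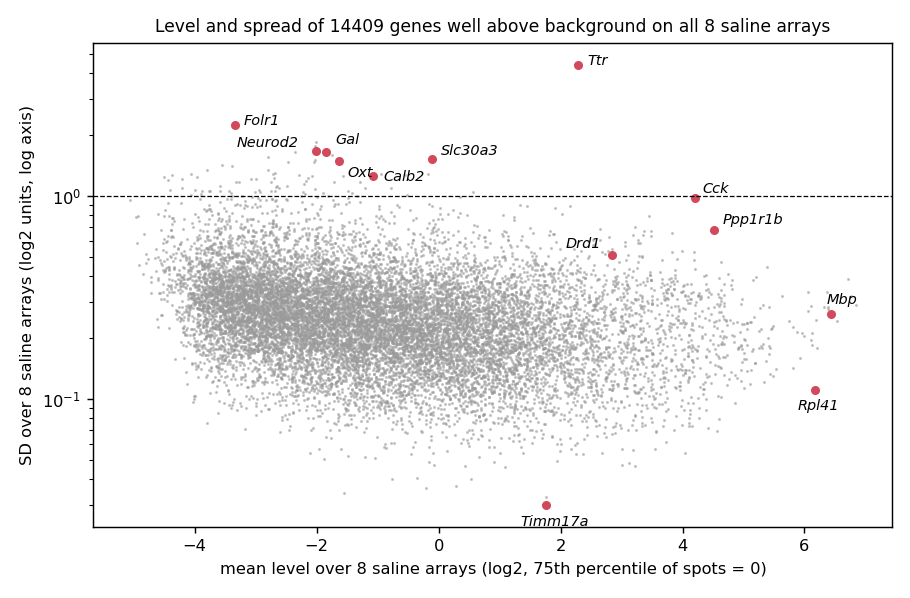
SD over the 8 saline arrays (vertical axis, log2 units on a log axis) against mean level (horizontal axis, log2, 75th percentile of spots = 0) for the 14409 genes on all 8 arrays. Each grey point is a gene, red points are named, and the dashed line is an SD of 1. Ttr stands alone at an SD of 4.42, and Ppp1r1b lies at 0.68 among the bright genes.

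Among genes on only some arrays, a few were carried by 1 array. Cpne5, a calcium-dependent membrane-binding protein, was at 0.02 in replicate 1 and between -9.53 and -5.46 in the others, with its call in replicate 1 alone. Tmem231, a protein of the ciliary transition zone, was at 1.94 in replicate 6 and between -6.23 and -5.18 elsewhere. Sostdc1, a secreted BMP and Wnt antagonist, had levels of -7.77, -4.29, -1.29, -0.53, 0.79, -7.29, -2.31 and -8.54. Sostdc1 was thus high in replicates 3, 4, 5 and 7, which were also high in Ttr.

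No gene passed the test of a difference between slides. Slides 1 and 2 held 3 saline arrays each and slide 3 held 2. Unlike the group tests below, the slide test took each saline array as a separate sample. Arrays of a shared title letter were not averaged in it, and the members of each such pair lay on different slides. Its p-values therefore treat these arrays as independent, which the labels do not establish. By limma's F test with Benjamini-Hochberg adjustment, 0 of 14409 genes (0%) differed by slide, with a smallest adjusted p of 0.596 and 894 genes at an unadjusted p under 0.05. For Ppp1r1b the slide means were 4.71, 4.02 and 4.94 (limma adjusted p = 0.596). Replicates 4 and 5, the lowest arrays in Neurod2, lay together on slide 2 with replicate 6, which was at -0.63. The slide means of Neurod2 were -1.52, -3.17 and -0.99 (limma adjusted p = 0.596). Among symbols, the smallest p-values belonged to Nom1, Spag6, Zfp648, Zbtb12 and Slc16a11, with the same adjusted p.

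Promoters of genes present on all saline arrays held more CG pairs than those of genes on none. Of the symbols with 1 entry in the RefSeq promoter table (GRCr8), 7352 were on all 8 arrays and 2035 on none. The CpG ratio is the number of CG pairs relative to that expected from the C and G content. Its median was 0.78 for genes on all arrays and 0.26 for genes on none, against 0.69 over the 12037 symbols of the array with 1 entry and 0.43 over all 24206 such genes of the table. A ratio over 0.6 was found in 75.6% of genes on all arrays, 17.6% of genes on none and 59.3% of the array's symbols. The motif TATAAA, on either strand anywhere in the 300 bases, was in 6.42% of promoters of genes on all arrays, 20% of genes on none, 9.77% of the array's symbols and 14.3% of the whole table. CCAAT, on either strand, was in 37.9%, 39.1%, 37.3% and 37.8% in the same order. Genes are not independent replicates, so these are descriptions. Of the printed promoters, Tac1 had 22 CG pairs and a ratio of 0.94, and Drd1 had 5 and a ratio of 0.27, although both genes were on all arrays. Drd2 had 19 and a ratio of 0.56.

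The saline group was then set beside the MDPV groups to ask whether its levels and spread differed from theirs. Of the genes on all 8 saline arrays, 98.5% were also on all 8 acute arrays and 99.4% on all 8 chronic arrays. In the other direction, 95% of the genes on all acute arrays and 90.2% of those on all chronic arrays were on all saline arrays. Of the genes on no saline array, 80.9% were on no acute array and 83.8% on no chronic array. No gene on all saline arrays was on none of either group. Among the 25 symbols with the highest level 24 were shared with the acute and 25 with the chronic group. All comparisons below use limma on 18 units, with arrays of a shared title letter averaged, and Benjamini-Hochberg adjustment over 20897 genes. Both use the same saline units.

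No gene passed the test in either comparison (0% of 20897). The unadjusted p was under 0.05 in 333 genes for acute and 595 for chronic. Ppp1r1b was at 4.44 ± 0.72 in saline and 4.56 ± 0.25 in acute units, a difference of 0.12 (95% interval -0.42 to 0.65; SD, n = 6 units each; limma adjusted p = 1). In chronic units it was at 4.70 ± 0.28, a difference of 0.26 (-0.27 to 0.79; n = 6; limma adjusted p = 0.999). Penk differed by 0.21 (-0.19 to 0.61) and 0.24 (-0.16 to 0.64), Drd1 by 0.29 (-0.13 to 0.71) and 0.09 (-0.33 to 0.50), and Drd2 by 0.25 (-0.23 to 0.73) and 0.11 (-0.37 to 0.59), acute first. Tac1 differed by 0.18 (-0.24 to 0.61) and 0.09 (-0.34 to 0.52). All 21 pan-striatal genes were nominally lower in saline than in either MDPV group, with medians of 0.19 and 0.16 against 0.00 and 0.02 over all genes tested. Without saline replicate 4 the acute difference of Ppp1r1b was -0.15 and the chronic one -0.01. Without it the differences were 0.03 and 0.06 for Penk, -0.02 and -0.11 for Tac1, 0.12 and -0.08 for Drd1, and 0.04 and -0.10 for Drd2, acute first.

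Choroid plexus genes were among those that leaned the other way, without passing the test. Of the list's 12 genes 7 were tested, and all 7 were nominally higher in saline. The medians were 0.81 and 1.71 (MDPV minus saline, -0.81 and -1.71). Over all genes tested, 10659 and 9117 of 20897 were nominally higher in saline, acute first. Hypothalamus genes were so in 9 of 10 in both comparisons. Thalamus, septum and pallidum genes were so in 8 and 9 of 9, and oligodendrocyte genes in 14 and 13 of 14. Cortical excitatory genes went the other way, with 2 and 1 of 9 higher in saline. A gene was tested when it was well above background on at least 0.5 of the arrays of any group. Kcnj13 was so only in saline, on 4 arrays, against 3 acute and 3 chronic arrays. The count of 7 is thus partly set by this filter. Ttr was at 2.82 ± 4.32 in saline and -2.12 ± 4.51 in chronic units, a difference of -4.95 (95% interval -9.42 to -0.47; SD, n = 6 units each; limma adjusted p = 0.999). Single chronic arrays ranged from -5.62 to 6.22, so the ranges of the groups overlapped. Among gene symbols, the smallest p-values for acute against saline belonged to Cmtm8 (-0.43), Cenpn (-0.46), Mmp2 (-0.51), Ptger3 (-0.71) and Edn1 (0.56), all with a limma adjusted p of 1. For chronic against saline, again among symbols, they belonged to Henmt1 (0.82), Ism1 (-0.54), Ptger3 (-0.80), Exo1 (-0.98) and Apaf1 (0.42), all with a limma adjusted p of 0.999. Over all gene names the smallest limma adjusted p was 0.713. Of these 9 genes, Mmp2, a matrix metalloproteinase, was well above background on all saline arrays.

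**Figure D5:**
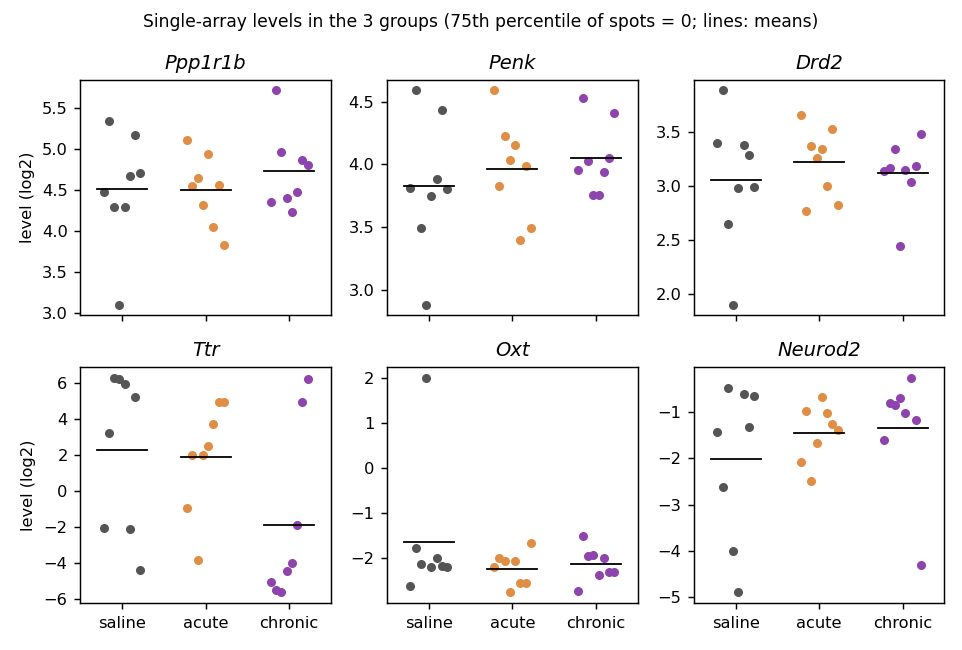
Level (vertical axes, log2, 75th percentile of spots = 0) of 6 genes on single arrays, 8 per group, with group means as lines; each panel has its own vertical range. Saline replicate 4 is the low point of Ppp1r1b, Penk and Drd2 in saline and the high point of Oxt (1.99), and Ttr spans much of its range in every group.

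The spread of saline units was nominally larger, but no gene passed the test of the difference. That test is limma on absolute deviations from the group mean, scaled by the root of n/(n - 1), with averaged pairs and single arrays alike as units. It called 0 of 20897 genes (0%) against acute and 0 (0%) against chronic, with 1631 and 1812 genes at an unadjusted p under 0.05. The deviation was smaller in the acute group in 12753 genes and in the chronic group in 13957. All 21 pan-striatal genes had smaller deviations in both MDPV groups, by medians of -0.27 and -0.28 against -0.02 and -0.04 over all genes tested. Saline replicate 4 was the lowest saline array in all 21 of these genes. Their median SD over the saline arrays was 0.59 with replicate 4 and 0.39 without it, so 1 array carried much of this spread. Among symbols, the smallest p-values were those of Msc, Slc5a7, Spata31d1d, RT1-M6-1 and Ppp2r2c for acute (limma adjusted p = 0.365 each) and Ppp2r2c, Hadhb, Gtf2a2, Tdrp and Mreg for chronic (0.304 each). Slc5a7, the choline transporter of cholinergic terminals, had an SD of 0.47 in saline and 0.10 in acute units. Over genes on all arrays of both groups, the median SD was 0.241 in saline and 0.201 in acute arrays, and 0.230 in saline without replicate 4. Without the unit of replicates 1 and 8 the test against acute called 7 genes, and without replicate 4 it called 1. With normexp background correction and quantile normalization together it called 1 gene against acute and 3 against chronic.

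The distance of saline units from their group median was not shown to differ from that of MDPV units. The median absolute deviation over 14162 genes was 0.118 ± 0.051 in saline, 0.104 ± 0.0302 in acute and 0.0976 ± 0.0497 in chronic units (SD, n = 6 each). By the two-sided exact permutation test over 924 splits, p was 0.576 against acute and 0.489 against chronic (both 0.576 after Benjamini-Hochberg adjustment over 4 tests). The smallest p that this design allows is 0.00216. The farthest saline units were replicate 7 (0.186) and replicate 4 (0.176), both single arrays. The averaged pairs lay at 0.0626 (replicates 1 and 8) and 0.0816 (replicates 2 and 5), and averaging can lower this distance. As single arrays, over the genes on all 8 saline arrays, replicates 4 and 7 were at 0.185, replicate 1 at 0.176 and replicate 5 at 0.166. Without replicate 4 the difference from acute was -0.00725. The share of spots well above background was 60.5% ± 5.68 in saline, 62.9% ± 7.27 in acute and 64.1% ± 2.79 in chronic units (exact permutation p = 0.522 and 0.219, n = 6 each).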

How the data were processed

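Per the file headers, the deposited scanner files hold the processed signal intensity of each spot from Agilent Feature Extraction 10.1.1.1, whereas the submitters' processing notes name version 10.7. Per the file headers, the software subtracted background, put surrogates in place of signals too close to background, and called a spot well above background at 13 times the SD of the background. The level of spots on surrogates follows the noise of their array. The authors' deposited series table holds log2 values whose rank correlation with the processed signals was 1.0 on each array; how they were normalized is not given in the sources used here.

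From these intensities, log2 levels were taken relative to the 75th percentile of non-control spots of each array, outlier spots were left out, spots of a probe were averaged, and the probe with the highest saline mean stood for its gene. A probe was called well above background on an array when at least 0.5 of its spots were. Tests were run with limma 3.58.1 in R 4.3.3. Permutation tests listed all splits in Python 3.11.15, with scipy 1.17.1 for their Benjamini-Hochberg adjustment. Group tests used 18 units, with arrays whose titles share a letter combined by their mean, and probes well above background on at least 0.5 of the arrays of a group. The scripts were tested on simulated data. Slide was the batch examined, with each saline array as a separate sample.

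The genes named are the 5 markers, the 25 symbols of highest level, the 20 of largest and 10 of smallest SD, the 10 of largest SD among genes on some arrays, leading and absent members of each list, and the 5 of smallest p in each test. Further list members were picked as examples with their values known. The members and lists were chosen with earlier results of these data known. Of 17717 symbols, 15736 are current RefSeq symbols and 1840 are synonyms. The number of arrays limits the precision. Alternatives were other normalizations and background correction, the authors' values, other probe and spot rules, other filters, slide or title series as a block, 24 arrays as independent samples, and leaving out arrays. Some items are not reported here.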

Additional observations from a re-analysis of the deposited data

Results flagged for a closer look

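Of 266 sets of values tested for a sample far from the others, 17 (6.39%) passed Dixon's 95% limit. The sets were levels of named genes, list deviations and quality measures over the saline arrays, and the unit distances within each group. All 17 were gene levels or list deviations over the 8 saline arrays. Chance flags about 5% of groups, but many of these genes were named for a large SD and some lists share genes, so 5% is no expectation for this set. Replicate 4 was the sample set apart in 9 of the 17, replicates 2 and 7 in 2 each, and replicates 1, 3, 5 and 6 in 1 each. The ratio given below is the gap to the nearest other array over the range of the 8.

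In replicate 4, Ppp1r1b was lowest at 3.10 with the next array at 4.29 (ratio 0.533), and Homer1, a postsynaptic scaffold protein, was lowest at 0.28 with the next at 1.04 (0.611). Oxt was highest at 1.99 with the next at -1.77 (0.815), Avp at 2.60 with the next at -3.21 (0.717), and Atp5s, an ATP synthase coupling factor, at 0.15 with the next at -1.06 (0.679). The mean deviation of replicate 4 was highest for the hypothalamus list (ratio 0.571), the oligodendrocyte precursor list (0.559) and the neuropeptide list (0.671), and lowest for the immediate early list (0.57). The blood cell list was highest in replicate 5, at 0.59 with the next array at 0.07 (0.565).

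Other arrays were set apart in single genes. Cpne5 was highest in replicate 1 at 0.02 with the next array at -5.46 (0.573). Tmem231 was highest in replicate 6 at 1.94 with the next at -5.18 (0.872). Rorb, a nuclear receptor of cortical layers, was lowest in replicate 2 at -1.48 (0.59), and Prm1, a sperm protamine, highest there at -4.36 (0.63). The serotonin receptor Htr4 was lowest in replicate 3 at -3.0 (0.731). Rpl10l, a ribosomal protein paralog, was lowest in replicate 7 at -5.48 (0.66), and the taste receptor Tas2r109 highest there at -3.56 (0.583). No cause was tested.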

How the results depend on the processing

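The counts of genes called between groups and between slides were 0 under every alternative run, namely 24 arrays as independent samples, slide or title series as a block where run, other normalizations, filters and left-out arrays. The test of spread called 1 gene against acute and 3 against chronic with normexp background correction and quantile normalization, 0 to 7 against acute with a saline unit left out, and 0 to 1 against chronic; the 1 came from 24 arrays without replicate 4, an alternative chosen after seeing the data. The median SD of 0.24 was 0.22 with normexp and quantile normalization together, 0.21 over 6 units and 0.23 to 0.26 with an array left out. The count of genes with an SD over 1 was 27 under that same pair of changes and 57 to 99 with an array left out. Leaving out an array gave 14410 to 16359 genes on all remaining arrays and 12181 to 14322 on none. The difference in median CpG ratio was 0.52, and 0.51 to 0.52 with an array left out. The cause of these changes was not tested. Levels of named genes moved beyond 1 SD in 40 of 212 with that pair and 67 of 212 with the median over probes. The difference in distance was -0.00725 against acute and -0.000499 against chronic without replicate 4. Signals near background limit the dim genes, and 14.8% to 34.3% of spots per saline array held surrogates. No paired analysis was possible because the replicate numbers follow accession order and pair no samples.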

Other observations

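Some genes lay at 2 separate levels over the saline arrays. A rule set after seeing the data asked for a gap of at least 1.5 between 2 groups of at least 2 arrays each, with neither group spanning more than 0.5 of the gap and all upper arrays well above background. It found 10 gene names, of which 7 are symbols (Atf7ip, Foxp3, Pnpla1, Cdnf, Frem3, Ucma and Sgcb). Foxp3, known as the transcription factor of regulatory T cells, had levels of -1.81, -0.91, -6.26, -5.89, -2.19, -1.67, -1.39 and -6.47 in replicates 1 to 8. Cdnf, a neurotrophic factor for dopamine neurons, had -1.84, -1.06, -5.25, -5.63, -2.34, -1.73, -1.60 and -5.16. Both genes were high in replicates 1, 2, 5, 6 and 7 and low in replicates 3, 4 and 8. The saline arrays were those on which both genes were found, so their match is no separate evidence. Of the 16 MDPV arrays, 16 lay on the same side in both genes. In each gene 2 MDPV arrays lay between the 2 saline levels. The second Foxp3 probe was on no saline array.

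Sgcb, a sarcoglycan, was between -1.0 and 0.08 in replicates 3, 4, 6 and 8 and between -3.51 and -3.23 in the others. Frem3 and Ucma set replicates 4 and 5 apart, high in Frem3 and low in Ucma. Replicates 1 and 8, which share a title letter, lay on the same side in 5 of the 10 genes, and replicates 2 and 5 in 6 of the 10. Foxp3 and Cdnf were thus at different levels in replicates 1 and 8. These patterns were noticed in the data, and no cause was tested.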
